A study of Volvox carteri with 12 samples.

Results

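Gonidia, the large reproductive cells of the multicellular green alga Volvox carteri, were compared between UV-B (ultraviolet B) irradiation and white light. The tested positions were chosen by where the gene rows of 5 deposited tables lay, and 9798 loci were followed, linked from between 29216 and 32714 gene rows per table (361331 rows in the 12 tables of the whole series). A locus was a set of rows sharing 80% or more of the longer row's length, with exactly 1 row in each table and a level of at least 1 FPKM (fragments scaled by transcript length and by the number mapped) in at least 2 tables. The UV-B group was gonidia of the wild-type strain Eve10 irradiated for 1 h with a narrowband lamp at 0.056 mW/cm2, replicates B and C (n = 2). The white-light group was gonidia of the same strain without UV-B, replicates A, B and C (n = 3). Every culture was grown in synchrony at 28 °C with 16 h of light (about 100 µmol photons m-2 s-1) and 8 h of darkness a day, and the cells were mature but had not begun embryogenesis. The labels call the replicates biological. They do not say what libraries of 1 letter share, how the cell types were separated or how long after irradiation the cells were collected. Somatic cells of both lights, 3 libraries each, serve here only for comparison. Replicate A of UV-B gonidia was left out, since all 4073 of its reference gene rows were at 0.

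A Volvox spheroid consists of many small somatic cells, which carry flagella and are terminally differentiated, and a few gonidia, each of which cleaves to form a new spheroid. UV-B damages DNA directly, and it is also a signal: in land plants and in the unicellular relative Chlamydomonas it is perceived by the photoreceptor UVR8, which acts with the ubiquitin ligase COP1 to change the transcription of genes for photoprotection and repair. The deposited rows carry either a reference ID or a number of their own, and neither was paired with a gene name, so no gene of these pathways could be looked up and loci are described by scaffold position. Of the 9798 loci, 3060 (31.2%) carried a reference ID, and 0 of these IDs were found in the table of 14334 RefSeq genes. Coordinates are those of the deposited tables (the median over the 5 tables), without strand, and the genome build is not given in the sources used here. Levels are FPKM after scaling of the 5 libraries to each other, and differences are on the scale of log2(FPKM + 1), which understates the change of low loci.

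The B libraries of both lights had the most fragments per locus and the highest level of somatic transcripts. The confidence limits beside the FPKM values imply a median of 652 and 344 fragments per locus in the UV-B libraries B and C, and of 450, 574 and 471 in the white-light libraries A, B and C. Of the 9798 loci, 161 and 1163 lay below 1 FPKM in the UV-B libraries B and C, against 572, 176 and 1034 in the white-light libraries A, B and C. The median level at 399 somatic-rich loci (described further on) was 18.8% and 3.07% of the somatic mean in the UV-B libraries B and C, against 5.80%, 19.6% and 3.28% in the white-light libraries A, B and C. More somatic cells in a sample and more somatic RNA per cell cannot be told apart in bulk RNA. Each table also had its own gene rows, so the same locus could be drawn differently in different libraries. At 3639 loci (37.1%) the rows overlapped by at least 95% in all 5 tables and no other row of the same table covered more than 10% of them; these are called loci of equal row extent.

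Gonidia irradiated for 1 h were close to white-light gonidia of the same letter at most loci. Within letter B the median absolute difference was 0.14 log2 units, and 90% of loci lay between -0.58 and 0.62. Within letter C the median absolute difference was 0.19 log2 units, with 90% of loci between -0.67 and 0.73. The differences between letters in the same light were wider. The UV-B libraries B and C differed by a median of 0.54 log2 units and the white-light libraries B and C by 0.48. The white-light library A differed by a median of 0.39 from B and by 0.22 from C. UV-B and white light were more than 1 log2 unit apart at 398 loci (4.06%) in letter B and at 504 loci (5.14%) in letter C. That limit was passed at 27.4% of loci between the UV-B letters B and C, and at 23.0%, 16.1% and 6.04% between the white-light letters B and C, A and B, and A and C. The first principal component held 67% of the variance, and on it the UV-B libraries B and C lay at -51.3 and 45.4 and the white-light libraries A, B and C at 17.8, -51.4 and 39.5. The component thus placed B libraries of both lights at one end and C libraries at the other, with white-light A between them.

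The changes in the 2 letters, which share no library, were nearly unrelated across loci. Pearson's r between the letter B difference and the letter C difference was 0.031 and Spearman's rho 0.066 over the 9798 loci, which are not independent replicates. The sign was the same at 5084 loci (51.9%). At 28 loci the UV-B library was more than 1 log2 unit higher in both letters (0.286% of all loci), and at 18 it was more than 1 log2 unit lower in both (0.184%). At 24 loci it was higher by that much in B and lower in C, and at 23 loci lower in B and higher in C. The counts of loci that moved together past this limit were therefore about as large as the counts of loci that moved apart. Among the loci of equal row extent 7 were higher in both letters, 4 lower in both, 9 higher in B and lower in C, and 5 lower in B and higher in C.

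**Figure D1:**
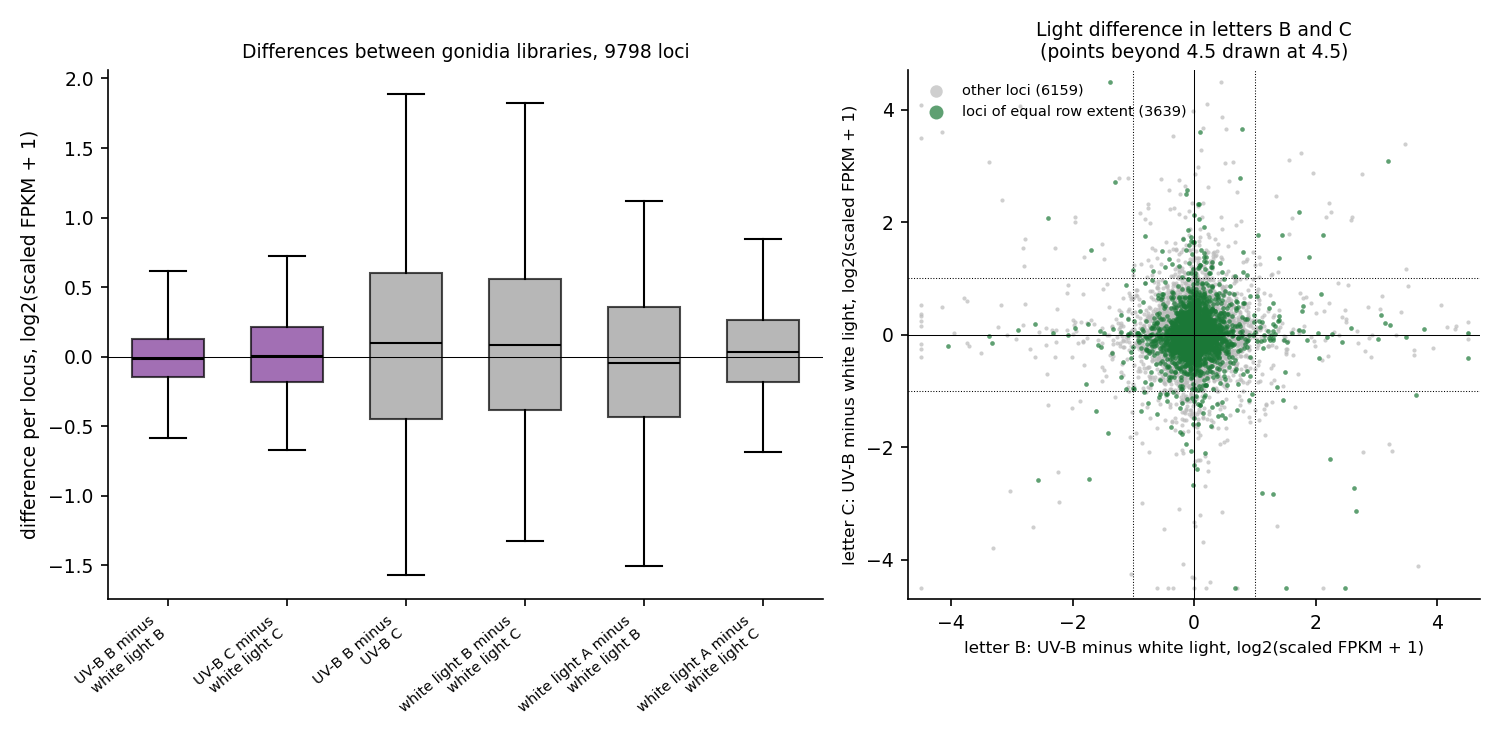
Left, the difference in log2(scaled FPKM + 1) per locus between pairs of gonidia libraries over 9798 loci (boxes, median and quartiles; whiskers, 5% to 95% of loci); purple boxes are UV-B minus white light within a letter and grey boxes compare letters within a light. Right, UV-B minus white light in letter B (horizontal) against letter C (vertical), each point a locus, green for the 3639 loci of equal row extent; most points lie near 0, and many large differences lie along 1 axis only (r = 0.031).

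In the test over all 5 libraries, 0 of 9798 loci were higher and 0 were lower under UV-B (0% in each direction; limma, adjusted p under 0.05), and the smallest adjusted p was 0.0821 (limma). At an unadjusted p under 0.05 there were 67 loci higher under UV-B (0.684%) and 40 lower (0.408%), together 1.09% of all loci. Evenly spread p-values would put a share of 0.05 of the loci there. The fit had no term for the letter, and why fewer loci passed was not tested. Both UV-B libraries lay above all 3 white-light libraries at 456 loci (4.65%) and below all 3 at 423 loci (4.32%). Together this was 8.97% of loci, where libraries that could be swapped freely between the lights would give a share of about 0.2. The gap was usually small, with a median difference of 0.39 log2 units at the higher loci and 0.33 at the lower ones. At 53 of the higher and 29 of the lower loci the difference exceeded 1 log2 unit, and 10 and 5 of these were of equal row extent. The 95% interval of a difference reached a median of 0.83 log2 units to either side of its value (quartiles 0.60 and 1.29). The whole interval lay between -1 and 1 at 4709 loci (48.1%), so a change of more than 1 log2 unit was outside the interval there, while at 3773 loci the interval reached more than 1 log2 unit to either side. A p above the threshold does not show that the lights had the same level.

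Loci with and without a reference ID were counted apart, with no test of the difference. Of the 3060 loci with an ID, 15 were higher and 6 lower at an unadjusted p under 0.05 (0.686% in both directions together), against 52 and 34 of the 6738 loci without an ID (1.28%). When the loci were split by mean level into 3 groups of 3266, the lowest (up to 5.34 FPKM) held 30 of the 46 loci that passed 1 log2 unit in the same direction in both letters. The middle group held 6 and the highest, from 17.8 FPKM, held 10. The median absolute difference within letter B was 0.19, 0.15 and 0.10 log2 units in the low, middle and high group, and within letter C 0.23, 0.19 and 0.17.

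Of the 8 loci of lowest p that were higher under UV-B, the first 4 were listed at 0 or stood below 0.5 FPKM in every white-light library. The first, at scaffold 40, 745426 to 747319, stood at 10.1 and 9.52 FPKM in the UV-B libraries B and C and was listed at 0 in all 3 white-light libraries (limma, adjusted p = 0.153, and 0.0574 to 1 over the alternatives). A smaller row nested in it, 745796 to 746560, was at 5.10 and 0 FPKM in the UV-B libraries B and C, against 6.39, 4.83 and 3.69 FPKM in the white-light libraries A, B and C. The stretch thus had signal in both lights, under different rows. Vocar20005158m.g.2.0, at scaffold 9, 3407704 to 3411056, stood at 2.89 and 6.29 FPKM in the UV-B libraries B and C and was listed at 0 in all 3 white-light libraries (limma, adjusted p = 0.9998). Its row began at 3407249 and 3407452 in the UV-B libraries and at 3407704 in each white-light library. These were the only 2 loci listed at 0 in every white-light library with at least 1 FPKM in both UV-B libraries.

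Vocar20012025m.g.2.0, at scaffold 51, 265632 to 268194, was at 6.05 and 3.10 FPKM in the UV-B libraries B and C, against 0.208, 0.176 and 0 FPKM in the white-light libraries A, B and C. The log2 difference was 2.26 ± 0.36 (SE; limma, adjusted p = 0.9998). In the fit of all 11 usable libraries on 6730 loci, gonidia and somatic cells together, this locus passed at adjusted p = 0.0259 (limma). Its log2 difference in gonidia was then 2.22 ± 0.25 (SE), so the difference hardly moved while the SE shrank. The somatic libraries in that fit were almost without signal here: only the UV-B library A had any, 0.450 FPKM. All other somatic libraries were listed at 0. How far these low somatic values narrowed the SE was not tested. The locus is the only one that passed as higher under any setting listed here. Its row began at 264992 in the UV-B library B and at 265632 in the others. A longer row covered it in full in UV-B C (51532 to 269364) and in white-light A (51487 to 269329). Vocar20014292m.g.2.0, at scaffold 6, 1099070 to 1101770, was at 3.52 and 3.25 FPKM in the UV-B libraries B and C, against 0.438, 0 and 0 FPKM in the white-light libraries A, B and C. The lights did not overlap (log2 difference 1.96 ± 0.33, SE; limma, adjusted p = 0.9998). Its row began at 1099013 and 1098636 in UV-B B and C and at 1099070 in each white-light library. Other rows covered 55.6% to 78.4% of it in every library. The longest of these ran past its right end, at 9.35 and 9.56 FPKM in UV-B B and C, against 10.8, 11.5 and 10.4 FPKM in white light A, B and C.

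Loci with clear signal in both lights differed by smaller amounts. The locus at scaffold 36, 719374 to 723494, was at 14.6 and 15.6 FPKM in the UV-B libraries B and C, against 6.70, 7.50 and 5.56 FPKM in the white-light libraries A, B and C. The libraries of each light lay close together, and the log2 difference was 1.09 ± 0.20 (SE; limma, adjusted p = 0.9998). At scaffold 21, 662379 to 666296, the level was 19.5 and 21.1 FPKM in the UV-B libraries B and C, against 10.6, 12.3 and 12.2 FPKM in white light A, B and C (log2 difference 0.75 ± 0.18, SE). At scaffold 2, 4645156 to 4652271, it was 4.21 and 8.13 FPKM in the UV-B libraries B and C, against 1.11, 2.05 and 1.26 FPKM in white light A, B and C (log2 difference 1.499 ± 0.35, SE). Short rows of higher level lay within that last locus in the UV-B library C and in every white-light library, but no other row lay within it in the UV-B library B.

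A pair of neighbouring loci on scaffold 4 was higher under UV-B in both letters. The row at 3786824 to 3803507 was at 6.40 and 5.72 FPKM in the UV-B libraries B and C, against 2.82, 2.08 and 2.24 FPKM in the white-light libraries A, B and C (log2 difference 1.07 ± 0.22, SE). It ended at 3804415 and 3804310 in UV-B B and C and at 3803507 in each white-light library. Other rows covered 20.5% to 54.3% of it. Among them, rows from 3797184 and 3797186 in white-light A and C were at 38.0 and 38.1 FPKM and ran past its right end. The row to its left, 3776509 to 3785264, was chosen after its values were seen. It is of equal row extent and was at 1.62 and 1.58 FPKM in the UV-B libraries B and C, against 0.161, 0 and 0 FPKM in the white-light libraries A, B and C (log2 difference 1.31 ± 0.32, SE). In white-light B and C, where it was listed at 0, a further row to the left ran into it. That further row ended at 3776547 and 3776529 there, at 81.7 and 99.8 FPKM. It ended at 3776456, outside the locus, in UV-B B and C (53.7 and 67.2 FPKM) and in white-light A (62.4 FPKM). Whether the 0 values follow from this was not tested. In somatic cells, on the scale of the 11 libraries, the row at 3776509 was at 6.87, 7.14 and 5.12 FPKM in UV-B libraries A, B and C, against 9.36, 8.12 and 7.57 FPKM in white-light libraries A, B and C. The direction was the opposite of that in gonidia, and the difference between the cell types, 1.62 log2 units, had an adjusted p of 0.173 (limma).

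Among the loci lower under UV-B, the one of lowest p rests on rows that were cut differently. At scaffold 1, 10666657 to 10683804, the level was 2.64 and 2.13 FPKM in the UV-B libraries B and C, against 36.3, 35.0 and 42.3 FPKM in the white-light libraries A, B and C (log2 difference -3.52 ± 0.19, SE; limma, adjusted p = 0.0821, and 0.000757 to 0.810 over the alternatives). In both UV-B libraries the left end, 10666681 to 10668690, was a separate row at 35.6 and 45.1 FPKM. The comparison is therefore of unlike stretches. Vocar20013003m.g.2.0, at scaffold 3, 4881459 to 4882975, was listed at 0 in both UV-B libraries and stood at 7.56, 7.15 and 5.84 FPKM in the white-light libraries A, B and C (limma, adjusted p = 0.178, and 0.0855 to 1 over the alternatives). A row that overlaps its right end, from 4882454, was at 67.4 and 80.6 FPKM in the UV-B libraries B and C, against 120, 69.4 and 98.6 FPKM in the white-light libraries A, B and C. At scaffold 3, 1912434 to 1917367, both UV-B libraries were listed at 0 and the white-light libraries A, B and C stood at 4.53, 3.73 and 4.46 FPKM (limma, adjusted p = 0.497). That row ended at 1916398 in both UV-B libraries, and the next row there was at 3.99 and 5.46 FPKM in the UV-B libraries B and C, against 0 in each white-light library. These last 2 loci were the only ones listed at 0 in both UV-B libraries with at least 1 FPKM in every white-light library.

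Of the 8 loci of lowest p that were lower under UV-B, scaffold 4, 1846444 to 1854162, was of equal row extent. It was at 7.49 and 8.26 FPKM in the UV-B libraries B and C, against 28.3, 16.0 and 16.8 FPKM in the white-light libraries A, B and C. The UV-B libraries lay below all white-light libraries, with white-light A the highest (log2 difference -1.22 ± 0.30, SE; limma, adjusted p = 0.9998; -1.0004 in letter B and -0.94 in letter C). At scaffold 7, 3365519 to 3366588, the level was 7.25 and 5.70 FPKM in the UV-B libraries B and C, against 13.2, 13.2 and 12.6 FPKM in white light A, B and C (log2 difference -0.91 ± 0.19, SE). At scaffold 23, 1755233 to 1762059, it was 6.80 and 8.42 FPKM in the UV-B libraries B and C, against 21.0, 14.7 and 17.4 FPKM in white light A, B and C (log2 difference -1.11 ± 0.23, SE). That locus went the other way in somatic cells, with 13.3, 7.64 and 13.9 FPKM in UV-B libraries A, B and C, against 1.41, 3.63 and 3.18 FPKM in white-light libraries A, B and C. The difference between the cell types was -2.88 log2 units and had an adjusted p of 0.173 (limma). At scaffold 5, 1858568 to 1870283, the level was 0 and 0.207 FPKM in the UV-B libraries B and C, against 2.36, 4.28 and 1.87 FPKM in white light A, B and C. In UV-B B a longer row, 1832476 to 1860894 at 3.28 FPKM, overlapped its left end. In UV-B C its row began at 1859879, and 1859061 to 1859690 was a separate row at 1.62 FPKM. At scaffold 3, 1939831 to 1940015, 184 bp by its median ends, the level was 15.9 and 16.6 FPKM in the UV-B libraries B and C, against 36.1, 26.3 and 28.5 FPKM in white light A, B and C. That short row ended at 1939987 and 1939986 in white-light A and C, and at 1940015 to 1940018 in the other libraries. A longer row covered it in full in white-light B.

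Of these 16 loci of lowest p, 4 carried a reference ID, 3 among the higher and 1 among the lower, beside 31.2% of all loci. Only 1 of the 16 was of equal row extent, against 37.1% of all loci, and of the 107 loci at an unadjusted p under 0.05, 29 were (27.1%). How far differences in row extent entered the other levels was not tested.

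**Figure D2:**
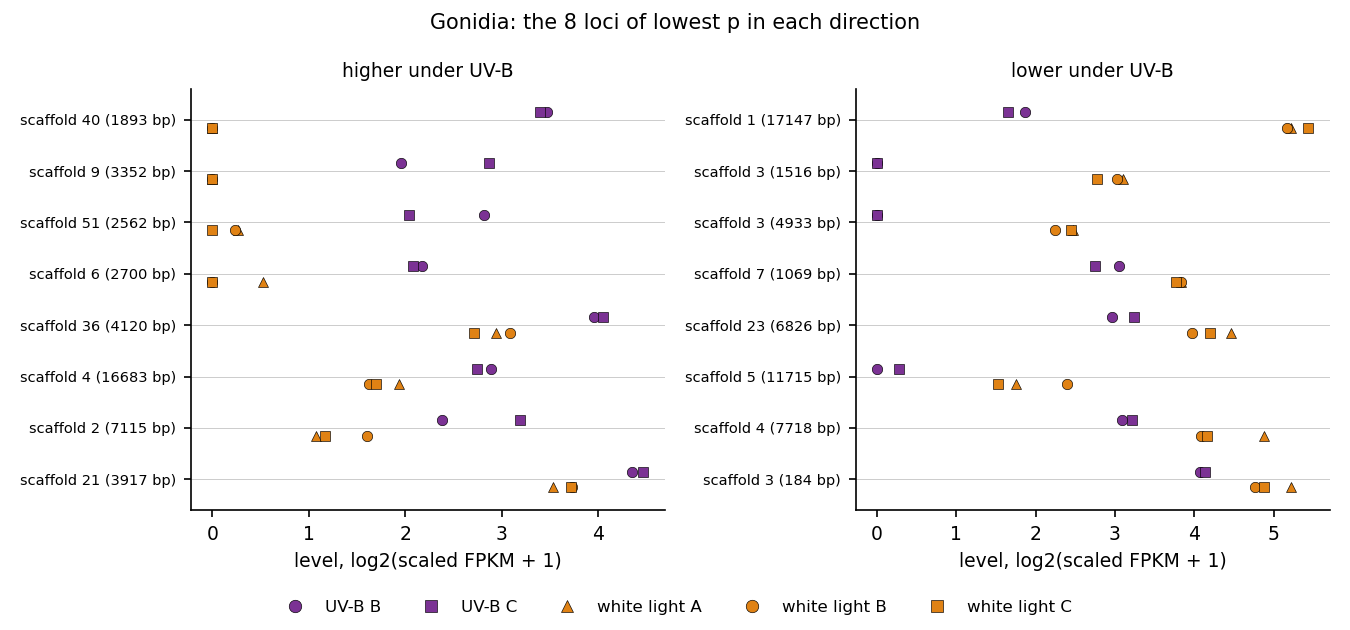
Level per library, as log2(scaled FPKM + 1), at the 8 loci of lowest p that were higher (left) or lower (right) under UV-B, by scaffold and row length in bp; purple, UV-B libraries B and C; orange, white-light libraries A, B and C. The lights do not overlap at any of the 16 loci, which were picked for low p, and at 4 of them all libraries of 1 light are listed at 0.

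Rows of equal extent that were higher or lower by most in both letters were examined next. The choice used the letter B and letter C differences, so these are descriptions. Among 2754 loci of equal row extent with a mean of at least 5 FPKM in either light, 3 passed 1 log2 unit in both letters, all of them higher under UV-B. Scaffold 1, 7413629 to 7414380, was at 8.14 and 7.47 FPKM in the UV-B libraries B and C, against 8.92, 0 and 0 FPKM in the white-light libraries A, B and C, so white-light A stood above both UV-B libraries. The row that overlaps its left end began at 7406557 in UV-B B and C (9.64 and 8.61 FPKM) and in white-light A (8.85 FPKM). In white-light B and C, where the locus was listed at 0, that row began at 7391734 and 7401012 (53.5 and 52.7 FPKM). Whether the 0 values follow from this was not tested. Scaffold 1, 7776277 to 7777366, was at 17.2 and 20.3 FPKM in the UV-B libraries B and C, against 13.2, 3.20 and 5.23 FPKM in the white-light libraries A, B and C. White-light A again lay nearest to the UV-B libraries. Vocar20009593m.g.2.0, at scaffold 1, 776071 to 778158, was at 11.1 and 20.8 FPKM in the UV-B libraries B and C, against 7.67, 4.80 and 5.36 FPKM in the white-light libraries A, B and C (1.05 log2 units higher in letter B and 1.78 in letter C).

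Of the other 5 higher loci, 2 separated the lights and 3 did not. Vocar20006504m.g.2.0, at scaffold 7, 627675 to 630427, was at 7.94 and 32.9 FPKM in the UV-B libraries B and C, against 1.48, 4.21 and 1.70 FPKM in the white-light libraries A, B and C. Every UV-B library was above every white-light library, by 0.78 log2 units in letter B and 3.65 in letter C. At scaffold 1, 4839527 to 4841358, the level was 3.55 and 17.9 FPKM in the UV-B libraries B and C, against 1.31, 1.69 and 1.74 FPKM in white light A, B and C. Only in UV-B C did this row carry a number of its own, and there it ended at 4841452. Every other gonidia library gave it the same number as the next row, 4841806 to 4844226. That next row stood at 304 FPKM in UV-B C and between 225 and 294 FPKM elsewhere. How far this entered the level in UV-B C was not tested. At Vocar20005834m.g.2.0, scaffold 110, 17889 to 19213, the UV-B libraries B and C were at 19.0 and 63.6 FPKM, against 34.6, 10.5 and 22.5 FPKM in white light A, B and C, and the lights overlapped. The pooled difference there was -0.084 log2 units without the UV-B library C. The lights overlapped also at scaffold 21, 705083 to 711349 (13.1 and 11.1 FPKM in UV-B B and C, against 13.9, 6.65 and 4.80 FPKM in white light A, B and C). The last of the 8, scaffold 6, 2531175 to 2540679, was at 13.8 and 5.53 FPKM in UV-B B and C, against 4.11, 6.88 and 3.04 FPKM in white light A, B and C.

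The 8 such loci that were lower under UV-B were led by Vocar20005829m.g.2.0, a row of 222 bp at scaffold 1029, 1613 to 1835. It was at 6.07 and 14.0 FPKM in the UV-B libraries B and C, against 15.6, 14.3 and 28.4 FPKM in the white-light libraries A, B and C. Scaffold 5, 3207369 to 3215869, was at 8.33 and 11.1 FPKM in the UV-B libraries B and C, against 12.7, 17.6 and 22.5 FPKM in white light A, B and C. Scaffold 64, 240153 to 244231, was at 10.7 and 5.95 FPKM in the UV-B libraries B and C, against 13.9, 20.5 and 16.8 FPKM in white light A, B and C. At these 3 loci, as at 1846444 on scaffold 4 above and at scaffold 1, 11140587 to 11149050, both UV-B libraries lay below all white-light libraries. At the other 3 the lights overlapped, and scaffold 4, 2245245 to 2257195, for example, was at 0 and 5.74 FPKM in the UV-B libraries B and C, against 14.0, 2.45 and 11.4 FPKM in white light A, B and C. The largest smaller change of the 2 letters among the lower loci was just under 1 log2 unit (-0.97 in letter C at scaffold 1029).

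Loci that passed 1 log2 unit in both letters did not always separate the lights. Of the 28 higher loci, 18 had both UV-B libraries above all 3 white-light libraries, and at 10 the lights overlapped. Of the 18 lower loci, 9 separated the lights and 9 did not. A reference ID was carried by 12 of the 28 and 4 of the 18. In each direction 11 of the loci were under 5 FPKM on average in both lights.

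**Figure D3:**
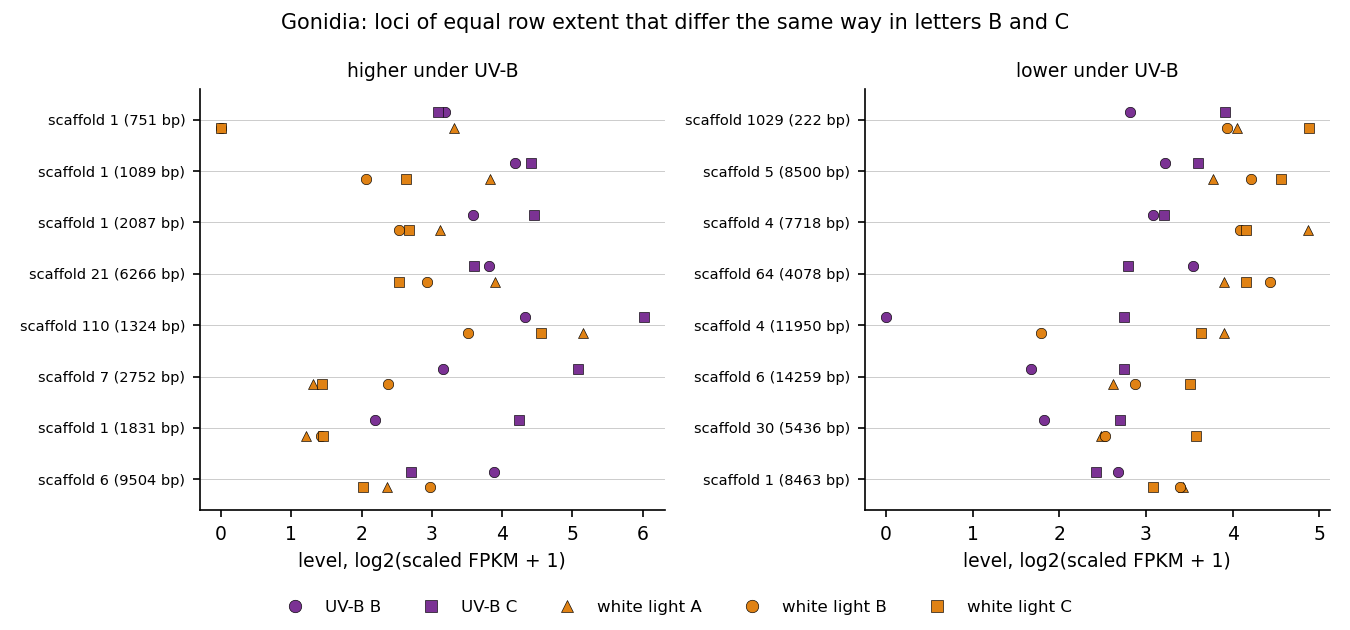
Level per library, as log2(scaled FPKM + 1), at the 8 loci per direction of equal row extent whose smaller change of letters B and C was largest, higher under UV-B on the left and lower on the right; purple, UV-B libraries B and C; orange, white-light libraries A, B and C. Circles (letter B) and squares (letter C) of the 2 lights are offset the same way at each locus, and white-light A (triangles) lies among the UV-B points at several loci.

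At the most abundant transcripts, letters B and C lay further apart than the 2 lights did within either letter. The 6 loci of highest mean level among rows of at least 200 bp were Vocar20011034m.g.2.0, Vocar20007265m.g.2.0, Vocar20008483m.g.2.0, Vocar20003040m.g.2.0 and loci without an ID at scaffold 2, 3451517 to 3452785, and scaffold 8, 3538231 to 3540166. Vocar20011034m.g.2.0, at scaffold 42, 266870 to 268078, stood at 5837 and 17043 FPKM in the UV-B libraries B and C, against 9337, 5706 and 13820 FPKM in the white-light libraries A, B and C. The UV-B library differed from white light by 0.03 log2 units in letter B and by 0.30 in letter C. The same order of libraries was seen at scaffold 8, with 3590 and 15010 FPKM in the UV-B libraries B and C, against 8428, 3484 and 12188 FPKM in white light A, B and C. At all 6 loci the B libraries of both lights were the lowest, letter C was 0.22 to 0.30 log2 units higher under UV-B, and letter B differed by -0.09 to 0.05.

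Since no marker gene could be looked up by name, the cell type of each library was read from loci defined on these data. Of the 6730 loci that were also linked to 1 row in each of the 6 somatic tables, 399 were somatic-rich (a mean of at least 20 FPKM in somatic cells and at least 5 times the mean of the B and C gonidia libraries) and 300 were gonidia-rich (the reverse). In the somatic libraries the somatic-rich loci stood at a median of 94.8%, 80.1% and 85.1% of the somatic mean under UV-B (A, B and C) and 120%, 106% and 108% in white light (A, B and C). Their low level in the gonidia libraries is fixed by the choice, but the order of the gonidia libraries is not: both B libraries held at least 18.8%, and the other 3 held 5.80% or less. Of the 399 loci, 3 and 15 were listed at 0 in the UV-B libraries B and C, against 11, 2 and 16 in the white-light libraries A, B and C. The per-library median did not separate the lights (exact permutation test, two-sided, p = 0.8, where 2 against 3 libraries cannot go below 0.2).

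Somatic-rich loci gave opposite signs in the pooled comparison and within the letters. Over all 5 libraries their median difference was 0.07 log2 units, with 246 of 399 loci above 0, beside 0.00 over all 6730 loci. Within letter B it was -0.07, with 134 of 399 above 0, and within letter C -0.09, with 133 above 0, beside -0.02 over all 6730 loci in each letter. The pooled value sets 1 library rich in somatic transcripts of 2 against 1 of 3. Of the 399, 0 passed the test (limma), and 0 had an unadjusted p under 0.05, beside 1.09% of all 9798 loci. The pooled fit had no term for the letter, and these loci stood far apart between letters B and C in both lights. The gonidia-rich loci had a pooled median of -0.05, with 106 of 300 above 0, which was -0.06 within letter B (89 above 0) and 0.03 within letter C (158 above 0). Their median level was 80.3% and 118% of the gonidial mean in the UV-B libraries B and C, against 104%, 84.2% and 117% in the white-light libraries A, B and C (exact permutation test, two-sided, p = 1). Of the 300, 0 passed the test (limma), and 1 had an unadjusted p under 0.05, beside the same 1.09% of all loci.

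**Figure D4:**
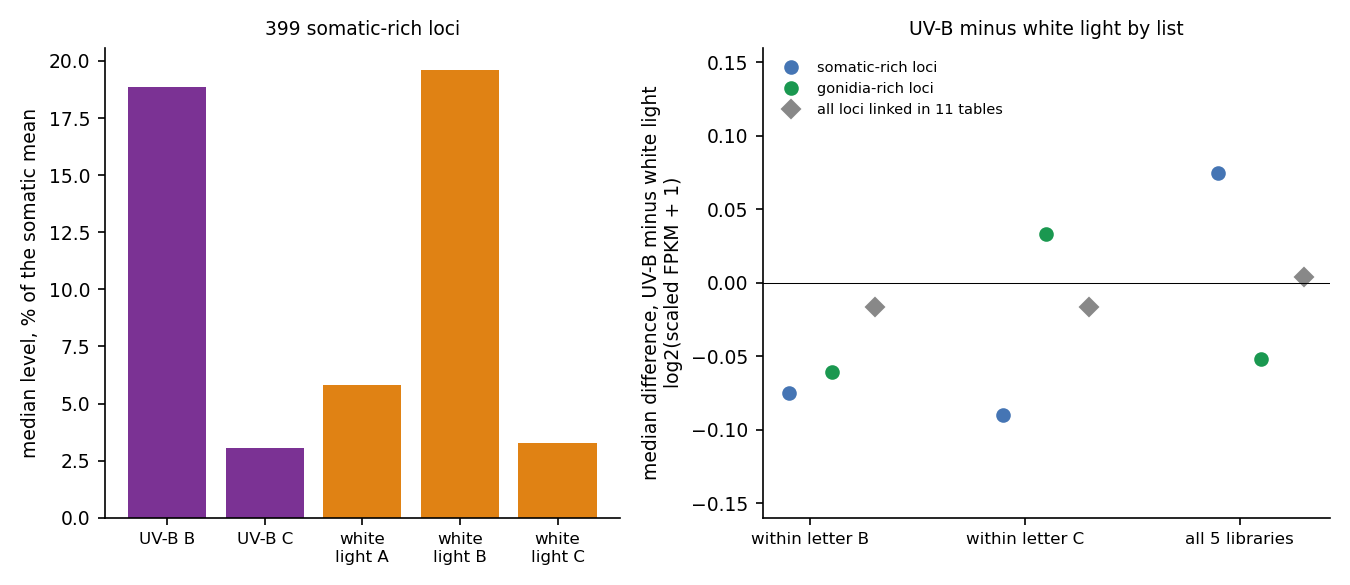
Left, the median level of 399 somatic-rich loci in each gonidia library, in percent of the somatic mean (purple, UV-B; orange, white light; 1 library per bar). Right, the median UV-B minus white-light difference in log2(scaled FPKM + 1) of the somatic-rich, gonidia-rich and all 6730 loci within letter B, within letter C and over all 5 libraries; the somatic-rich median is below 0 in each letter and above 0 when the 5 libraries are pooled.

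Some loci were higher under UV-B in every letter of both cell types, which share no library. Of the 6730 loci, 17 were more than 1 log2 unit higher in both gonidia letters and 17 in all 3 somatic letters, and 3 loci were in both lists (17.6% of each, where 0.253% of all loci are in each list). They all carried a reference ID. At a limit of 0.5 log2 units, chosen with the loci below after values were seen, the lists held 70 gonidia and 93 somatic loci, with 11 in both. This was 15.7% of the gonidia list and 11.8% of the somatic list, where the somatic list holds 1.38% of all loci and the gonidia list 1.04%. Of the 11, 7 carried a reference ID and 5 were of equal row extent. In the other direction 68 gonidia and 76 somatic loci were lower by that limit in every letter, and 2 were in both lists (2.94% and 2.63%, where the somatic list holds 1.13% of all loci). The gonidia libraries also held somatic transcripts. The somatic-rich loci stood at 18.8% and 19.6% of the somatic mean in gonidia B under UV-B and in white light. In the other gonidia libraries they stood at 3.07% to 5.80%. How far somatic transcripts entered the gonidia levels of the shared loci was not tested.

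Among the 3 shared loci, Vocar20010064m.g.2.0, at scaffold 40, 99805 to 104018, stood in gonidia at 13.9 and 44.4 FPKM under UV-B (B and C), against 10.98, 4.92 and 7.25 FPKM in white light (A, B and C), on the scale of the 11 libraries. In somatic cells it stood at 32.5, 8.77 and 31.9 FPKM under UV-B, against 1.66, 1.66 and 1.52 FPKM in white light (A, B and C). Its row ran on to 104680 in white-light gonidia A and ended at 104018 in the other gonidia libraries. Vocar20009593m.g.2.0, described above, stood in UV-B gonidia at 10.5 and 20.2 FPKM (B and C), against 7.36, 4.59 and 5.18 FPKM in white-light gonidia (A, B and C). In somatic cells it was at 19.1, 7.64 and 19.4 FPKM under UV-B, against 1.19, 0.518 and 0.276 FPKM in white light (A, B and C). Vocar20009658m.g.2.0, at scaffold 1, 12663118 to 12670426, was low in both cell types, at 1.44 and 1.93 FPKM in UV-B gonidia, against 0.318, 0.183 and 0.141 FPKM in white-light gonidia. Longer rows covered it in full in every gonidia library but white-light B.

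Vocar20006504m.g.2.0 and Vocar20005834m.g.2.0, also described above, were among the 11. In somatic cells Vocar20006504m.g.2.0 was at 21.2, 3.01 and 16.4 FPKM under UV-B, against 2.59, 0.511 and 0.937 FPKM in white light (A, B and C). Vocar20005834m.g.2.0 was at 53.5, 16.3 and 61.3 FPKM in UV-B somatic cells, against 5.84, 1.71 and 3.94 FPKM in white-light somatic cells (A, B and C). In gonidia its white-light A library, at 33.2 FPKM, lay above UV-B B, at 18.1 FPKM. Vocar20008797m.g.2.0, at scaffold 1, 2446974 to 2453992, stood in UV-B gonidia at 2.22 and 3.42 FPKM, against 1.19, 1.20 and 0.50 FPKM in white-light gonidia, and its row began further left under UV-B. At Vocar20002546m.g.2.0 (scaffold 2, 260814 to 263938) and at scaffold 8, 254017 to 254687, the B libraries of both lights were far above the other gonidia libraries. The scaffold 8 locus, for example, had 52.2 and 7.94 FPKM in the UV-B gonidia libraries B and C, against 10.8, 29.4 and 5.02 FPKM in white-light gonidia A, B and C. Without the UV-B library B the pooled difference in gonidia was below 0, at -0.47 log2 units for Vocar20002546m.g.2.0 and -0.54 for the scaffold 8 locus. Of the 2 loci that were lower in every letter, scaffold 26, 1210952 to 1213129, separated the lights in gonidia, at 55.2 and 45.7 FPKM under UV-B, against 70.3, 83.3 and 78.9 FPKM in white light (A, B and C).

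**Figure D5:**
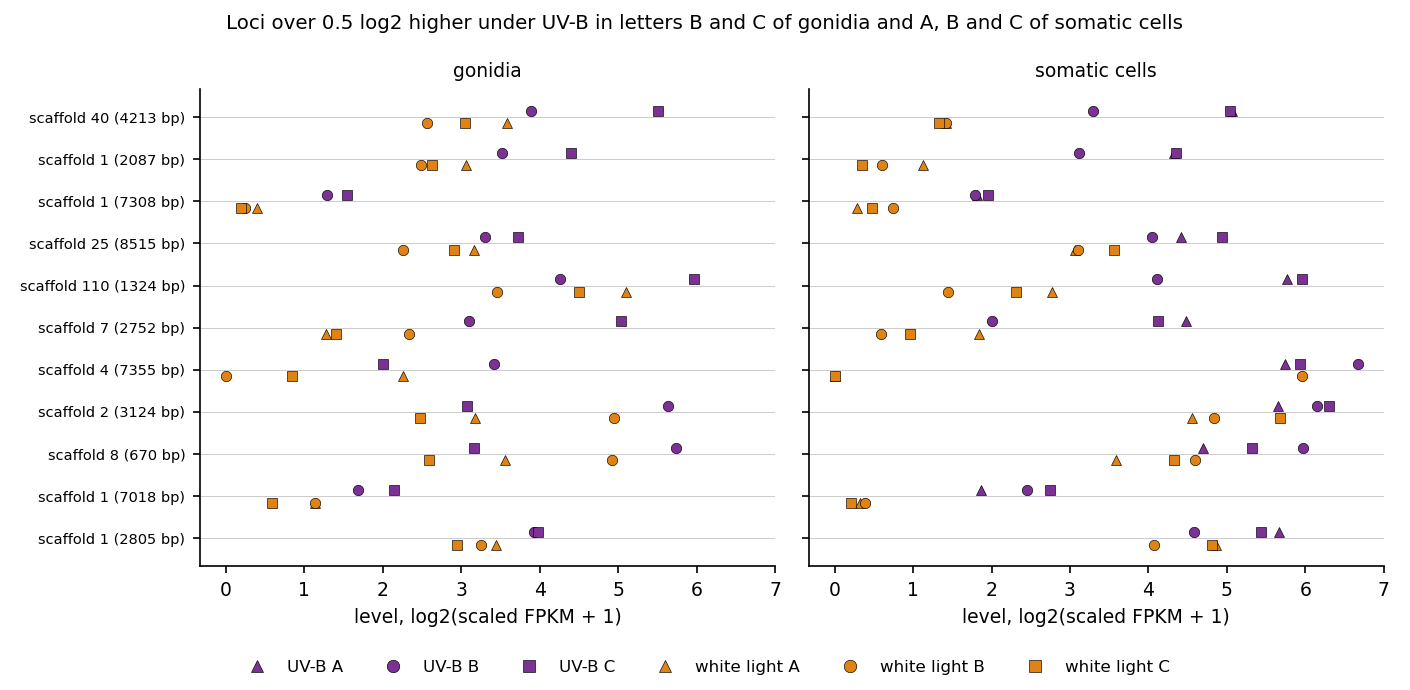
Level per library, as log2(scaled FPKM + 1) on the scale of the 11 usable libraries, at the 11 loci more than 0.5 log2 units higher under UV-B in letters B and C of gonidia (left) and in letters A, B and C of somatic cells (right); purple, UV-B; orange, white light. The loci were picked for this pattern, and in gonidia the white-light A library (triangles) lies above the lower UV-B library at several of them. How far somatic transcripts enter the gonidia levels was not tested.

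A fit of all 11 libraries tested whether the UV-B response differed between gonidia and somatic cells. At 0 of 6730 loci was it more positive in gonidia than in somatic cells (0%), and at 3 it was less positive (0.0446%; limma, adjusted p under 0.05). An unadjusted p under 0.05 was found at 135 loci, both directions together. At scaffold 2, 455263 to 456043, gonidia had signal in both lights, at 32.2 and 49.96 FPKM under UV-B (B and C) and 37.6, 30.4 and 37.5 FPKM in white light (A, B and C). Somatic cells were at 51.1, 54.8 and 49.1 FPKM in UV-B libraries A, B and C and were listed at 0 in all 3 white-light libraries. At scaffold 34, 521074 to 526024, gonidia were at 9.56 and 10.6 FPKM under UV-B (B and C) and 8.61, 11.04 and 15.5 FPKM in white light (A, B and C), while somatic cells were at 12.1, 12.9 and 14.7 FPKM in the UV-B libraries A, B and C and listed at 0 in white light. At both loci it was the white-light somatic libraries that stood apart from the other 8 libraries. Neighbouring and overlapping rows were examined in the gonidia libraries only. Whether the somatic libraries listed at 0 had signal there under another row was therefore not tested. The third locus, 10666657 on scaffold 1, is the row that was divided in UV-B gonidia.

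In somatic cells 6 of the 6730 loci were higher under UV-B (0.0892%) and 0 lower (0%; limma, adjusted p under 0.05). In gonidia the same 6 loci differed by 1.245 (Vocar20009593m.g.2.0), 1.17 (Vocar20009658m.g.2.0), 0.98 (Vocar20008797m.g.2.0), 0.43 (scaffold 6, 2513322), 0.19 (scaffold 2, 455263) and -0.16 (scaffold 34, 521074) log2 units, and none passed the test in gonidia (limma, adjusted p = 0.9998 for each). The difference at 455263 was -0.10 without the UV-B library C, and that at 521074 was 0.041 without the white-light library C.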

How the data were processed

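Libraries of polyA RNA from gonidia and somatic cells were sequenced by Illumina methods, per the labels' protocols. Per the file headers, each deposited table gives FPKM for every gene row, beside a status and the lower and upper 95% limit. The submitters' processing notes name the tools TopHat2 (version 2), Cufflinks (2.0.1) and Cuffdiff (2). Genome build and annotation: not given in the sources used here. Fragments per locus were computed from the upper limit, by squaring the value divided by its SD; they cover counting error only, and the limits are wider at loci of several isoforms.

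The replicate A table of UV-B gonidia was left out: its 3870 rows above 0 had limits equal to their values and summed to 3942 FPKM. In the other 5 gonidia libraries, 12023 linked sets had exactly 1 row per table, and 9798 of these passed the filter on low values. They held 35.2% to 50.7% of a library's FPKM sum, much of the rest being in rows under 200 bp. A locus assembled in only some libraries is in no comparison. Libraries were divided by median-of-ratios factors over loci above 1 FPKM in all 5 tables (0.769 to 1.23), and log2(FPKM + 1) was analysed in R 4.3.3 by limma 3.58.1 (a mean per light, empirical Bayes with an intensity trend, Benjamini-Hochberg over 9798 loci, threshold 0.05, two-sided). The difference between cell types was an interaction in a fit of the 11 usable libraries on 6730 loci. Python 3.11.15 with pandas 2.3.3 and scipy 1.17.1 did the linking and the exact tests. The fit was tested on simulated data in which the libraries were drawn independently, without letter differences. Its behaviour with letter differences like those seen here was not tested.

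Loci named are the 8 of lowest p per direction; the 8 per direction of equal row extent and at least 5 FPKM in either light with the largest smaller change of letters B and C; the 6 most abundant; those listed at 0 in 1 light only; those passing in somatic cells; and, chosen after values were seen, a neighbouring locus and those alike in both cell types. The members and lists were chosen with earlier results of these data known. Alternatives were the FPKM as deposited, quantile normalization, a pseudocount of 0.1, other filters, linking at 95% or 50%, loci of equal row extent only, the replicate letter as a block, library weights, no intensity trend, leaving out each library or both B libraries, and all 11 libraries in 1 fit.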

Additional observations from a re-analysis of the deposited data

Results flagged for a closer look

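At 3 loci the UV-B response differed between the cell types (interaction of light and cell type, limma). The response in gonidia minus that in somatic cells was -5.53 log2 units at scaffold 2, 455263 to 456043 (limma, adjusted p = 3.45e-05). It was -3.99 log2 units at scaffold 34, 521074 to 526024 (limma, adjusted p = 0.000961). At these 2 loci every white-light somatic library was listed at 0, and a longer row, from 452311, covers the scaffold 2 locus in each gonidia library. Other rows at these loci were not examined in the somatic libraries. At scaffold 1, 10666657 to 10683804, the difference was -3.67 log2 units (limma, adjusted p = 0.00228), where the UV-B gonidia rows covered a shorter stretch, so that value compares unlike stretches.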

How the results depend on the processing

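The counts of 0 higher and 0 lower loci were the same under every alternative to the 5-library fit except that of all 11 libraries, in which 1 locus was higher (scaffold 51, 265632) and 1 lower (scaffold 1, 10666657); the cause was not tested. The labels do not say what a letter shares, and gonidia had only 2 letter pairs, whose deviations from their group means correlated at 0.720 for B and 0.644 for C, values that are not independent, since the deviations of 2 UV-B libraries from their mean differ only in sign. With the replicate letter as a block 0 loci passed (limma, smallest adjusted p = 0.546), and the loci at an unadjusted p under 0.05 numbered 213 higher and 161 lower, against 67 and 40 without it. Without both B libraries they numbered 362 and 219, without the UV-B library B 167 and 110, without the UV-B library C 117 and 105, without the white-light library A 34 and 30, without the white-light library B 106 and 72, and without the white-light library C 40 and 44. On FPKM as deposited there were 33 and 26; the median difference of all loci is 0.01 log2 units after scaling.

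The count of 3 loci whose response differed between cell types was 9 without the UV-B gonidia library B, 16 without the UV-B library C, 5, 6 and 4 without the white-light libraries A, B and C, and 23 without both B gonidia libraries (13 more and 10 less positive in gonidia). It was 4 with the replicate block. Each of these included the same 3 loci, and where 1 UV-B library is left, its spread is taken from the other groups. Of the 51 named loci 11 changed sign under at least 1 setting, among them all 6 of the most abundant, whose differences lay near 0. Leaving out each library in turn, the log2 difference ran from -0.55 to 0.60 at Vocar20008483m.g.2.0, from -0.76 to 0.99 at Vocar20007265m.g.2.0, from -0.75 to 0.85 at Vocar20003040m.g.2.0, from -0.58 to 0.80 at scaffold 2, 3451517, from -0.63 to 0.92 at Vocar20011034m.g.2.0 and from -0.98 to 1.08 at scaffold 8, 3538231. It ran from -0.084 to 1.61 at Vocar20005834m.g.2.0, from -0.47 to 2.11 at Vocar20002546m.g.2.0, from -0.54 to 2.06 at scaffold 8, 254017, from -0.10 to 0.49 at scaffold 2, 455263, and from -0.34 to 0.041 at scaffold 34, 521074. On FPKM as deposited it was -0.036 at Vocar20008483m.g.2.0, -0.0075 at Vocar20003040m.g.2.0 and -0.013 at scaffold 8, 3538231, and with quantile normalization -0.070, -0.030 and -0.051 at the same loci. With library weights it was -0.064, -0.069 and -0.20 there, -0.024 at Vocar20007265m.g.2.0 and 0.094 at scaffold 34, 521074. The cause of these changes was not tested. With 2 UV-B libraries the intervals are wide, and at low levels, changes are also understated by the pseudocount.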
